A study of Homo sapiens with 2 samples.

Results

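CC chemokine transcripts were measured in LPS-stimulated and control THP-1 cells with array probes that were chosen by their identifiers, those of the Agilent catalogue for 7 genes (CCL2, CCL3, CCL4, CCL5, CCL7, CCL8 and CCL20). Of these 7, 6 were measured, out of 75149 non-control probes on the array, and the catalogue probe for CCL3 was not analysed here. The gene names are those of the catalogue, because the scanner files hold identifiers alone. The genes of the CC chemokine receptors, of the other CC chemokines and of LPS sensing, and the markers of monocytes and of other cell types, could therefore not be matched to probes, so the label of the cells was not checked against its markers.

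CC chemokines are small secreted proteins, named for a pair of adjacent cysteines, that draw leukocytes along a gradient by binding G protein-coupled receptors on their surface. Monocytes and macrophages are both a source and a target of them. Lipopolysaccharide (LPS), which Gram-negative bacteria carry on their surface, is sensed by Toll-like receptor 4, which signals to NF-kB, AP-1 and interferon regulatory factors, and many CC chemokine genes are known targets of these factors. Among the genes described here are CCL2, CCL7 and CCL8, the monocyte chemoattractant proteins, which act on CCR2 and, for CCL7 and CCL8, on further receptors; CCL4 and CCL5, which draw T cells and monocytes; and CCL20, which acts on CCR6 and draws lymphocytes and dendritic cells.

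The cells were THP-1, a human monocytic leukaemia cell line bought from a cell bank and grown with serum and β-mercaptoethanol, so that a single line stands for the macrophages of interest. LPS-stimulated cells were compared with control cells, with 1 array per condition, to ask which transcripts differ in LPS-activated cells. According to the labels the cells were collected after 48 h and the control was DMSO, whereas the methods call these cells untreated, and the LPS dose is not given in the sources used here. RNA was labelled with a single dye, Cy3. The arrays were a pair on the same slide, and the position on the slide and the condition cannot be told apart. With 1 array per condition there was no replicate and no test was made, and every SD or SE given here is between spots of the same array, which is technical error alone. Each SE is pooled over many probes and does not come from the spots of the probe alone.

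The promoters that the reference table holds for the genes whose signal differed are shown first, for a view of the sequence before 2 of the genes with a lower signal after LPS (CCL7 and CCL8) and before the gene with a higher signal (CCL20). Each run is the 250 bases before the transcription start, 5′ to 3′ on the plus strand of GRCh38.p14, from RefSeq. The table used here held a promoter for 3 of the 6 measured genes. Capitals mark matches to the motifs named below.
CCL7, chr17:34269971-34270220: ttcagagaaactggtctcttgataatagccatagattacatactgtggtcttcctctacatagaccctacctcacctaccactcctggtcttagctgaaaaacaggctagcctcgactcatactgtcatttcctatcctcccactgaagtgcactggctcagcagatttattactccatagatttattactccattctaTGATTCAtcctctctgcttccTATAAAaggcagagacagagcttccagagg
CCL8, chr17:34319185-34319434: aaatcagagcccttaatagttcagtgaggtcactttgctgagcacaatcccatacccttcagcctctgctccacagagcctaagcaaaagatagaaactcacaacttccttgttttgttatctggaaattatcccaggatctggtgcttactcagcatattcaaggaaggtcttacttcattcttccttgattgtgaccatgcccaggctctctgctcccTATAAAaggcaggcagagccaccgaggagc
CCL20, chr2:227813592-227813841: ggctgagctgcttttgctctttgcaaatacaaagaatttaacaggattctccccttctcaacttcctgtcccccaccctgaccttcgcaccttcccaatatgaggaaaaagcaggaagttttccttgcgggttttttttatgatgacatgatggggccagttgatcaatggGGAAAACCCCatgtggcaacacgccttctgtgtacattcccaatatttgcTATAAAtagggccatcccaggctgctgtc

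Both strands were searched for TATAAA (the TATA box), TGANTCA (AP-1), TTNNGNAA (C/EBP) and the consensus motifs of NF-kB and of the interferon-stimulated response element. All 3 windows held a TATA box, from base -30 to -25 in CCL7 and CCL8 and from -29 to -24 in CCL20, counted back from -1 at the base before the start. A TATA box was found in 10.7% of the 35116 promoter windows of the same length in the table. CCL7 held an AP-1 match from -51 to -45, a motif found in 6.57% of all windows, and the match reads on both strands. CCL20 held an NF-kB match from -79 to -70 on the minus strand, a motif found in 9.96% of all windows, and none of these letters matched in the windows of CCL7 and CCL8. No window of these 3 genes held the C/EBP motif, found in 33.2% of all windows, or the interferon-stimulated response element, found in 3.02%. No match overlapped another motif. A match to these letters is a description and not a bound site, and no match says only that the letters are not in this window.

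**Figure D1:**
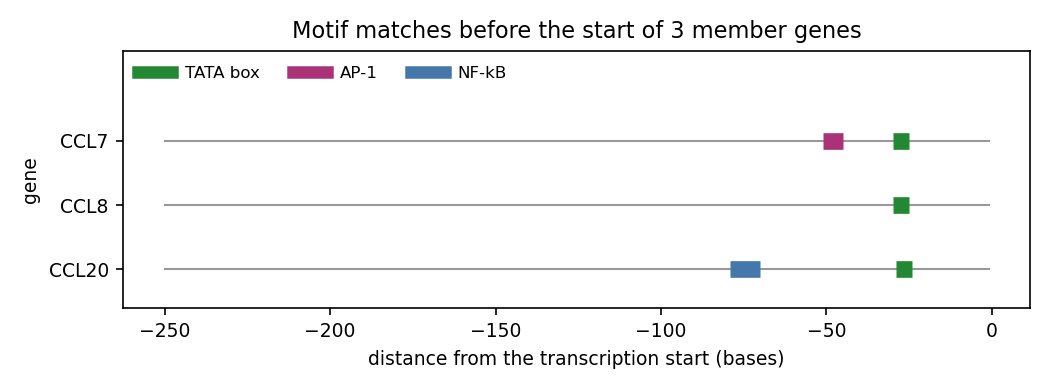
Motif matches in the 250 bases before the transcription start of CCL7, CCL8 and CCL20, with the distance from the start in bases on the x axis and 1 line per gene. Coloured blocks are matches to the TATA box, AP-1 and NF-kB motifs on either strand; all 3 genes hold a TATA box near -30, and the NF-kB match is in CCL20.

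CCL7 and CCL8 also shared their longest common run, CCTATAAAAGGCAG, of 14 bases, which starts at base -32 in both and holds the TATA box. The longest run that CCL7 shared with CCL20 had 7 bases, and that of CCL8 and CCL20 had 9 bases. In the order of protein-coding genes of the GRCh38.p14 annotation, CCL2 and CCL7 are neighbours on chromosome 17, and CCL11 is the single gene between CCL7 and CCL8. After CCL8, 27 protein-coding genes lie before CCL5, and CCL4 lies further along the same chromosome next to CCL3. CCL20 is on chromosome 2.

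CCL2, CCL7 and CCL8 had a lower signal in LPS-stimulated cells, CCL20 had a higher signal, and CCL4 and CCL5, also on chromosome 17, differed little. The other CC chemokine genes of that chromosome were not measured here. Calls were made at a difference of 2-fold or more after each array was scaled to its 75th percentile. Of the 6 probes, 3 were called lower (CCL2, CCL7 and CCL8) and 1 was called higher (CCL20). Among the 69392 probes of the array that were above background on at least 1 array, 16.5% were called lower and 0.783% higher. Most lower calls over the whole array were of dim probes. Among the 22544 probes of like signal (the 3 of 10 groups by mean signal that hold the 6 probes), 2.91% were called lower and 0.829% higher. The median difference of the 6 probes, LPS minus control, was -0.94 (log2), while over all 75149 probes it was -0.13 and over the 61465 probes detected on both arrays -0.05. The 6 probes did not move together. Their median falls between CCL7 (-1.75) and CCL5 (-0.14), and no probe lay near it. In these samples of whole cultures, fewer cells that make a transcript and less of it per cell cannot be told apart.

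CCL2, which recruits monocytes through CCR2, was read by probe A_23_P89431. Its spots had signals of 21444 and 21727 on the control array and of 5656 and 5440 on the LPS array. Both LPS spots lay far below both control spots. The spot means were 21585 and 5547, a difference of -2.09 ± 0.09 (log2, SE between spots), which is 4.27-fold lower after scaling. Over every pairing of an LPS spot with a control spot the difference lay between -2.13 and -2.06. The signal on the LPS array, though lower, remained 3.21 (log2) above the 75th percentile of that array, so the transcript was still far above background there.

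CCL7, a chemoattractant for monocytes and eosinophils, was read by probe A_23_P78037. Its spots had signals of 1380 and 1353 on the control array and of 463 and 430 on the LPS array. The spots of the arrays did not overlap here either. The difference was -1.75 ± 0.10 (log2, SE between spots), or 3.36-fold lower, with spot pairings from -1.82 to -1.68.

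CCL8, which shares receptors with CCL2 and CCL7, was read by probe A_23_P207456 and had the largest difference of the 6 probes. On the control array its spots had signals of 3534 and 5386, and the brighter of these carried the scanner software's outlier flag and was left out. On the LPS array the signals were 209 and 273. Even the dimmer control spot was many times brighter than either LPS spot, and the LPS spots were still marked well above background. The difference was -4.02 ± 0.12 (log2, SE between spots), or 16.2-fold lower, and rests on 1 control spot. Spot pairings ran from -4.22 to -3.83. This SE is pooled over probes of like mean signal, whose LPS spots had an SD of 0.09 (log2). The LPS spots of CCL8 itself had an SD of 0.28, so the SE understates their spread. With the flagged spot kept it was -4.33. Of the 61465 probes detected on both arrays, this probe had the 31st lowest difference.

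CCL20, the ligand of CCR6, was read by probe A_23_P17065 and was dim on both arrays. Its spots had signals of 78.3 and 53.1 on the control array and of 199 and 186 on the LPS array. Both LPS spots were brighter than both control spots, and all 4 were well above background. The control spots had an SD of 0.40 (log2), the widest of any of these probes with a pair of spots kept. The difference was 1.44 ± 0.15 (log2, SE between spots), or 2.72-fold higher, with spot pairings from 1.12 to 1.77. This SE is pooled over probes of like signal, whose control spots had an SD of 0.15 (log2). It therefore understates the spread of the control spots of CCL20. Of the 61465 probes detected on both arrays, 0.395% had a higher difference. The call did not hold under the normexp background correction with an offset of 50, where the difference was 0.92.

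CCL4, a chemoattractant made by activated macrophages, was read by probe A_23_P207564. Its spots had signals of 1475 and 1361 on the control array and of 1498 and 1493 on the LPS array. Before scaling both LPS spots lay just above both control spots. After scaling, which took 0.13 (log2) more from the LPS array than from the control array, the difference was -0.06 ± 0.10 (log2, SE between spots). Its sign turned under scaling to the 50th percentile (0.06) and without scaling (0.08), so no direction is given for it.

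CCL5, which T cells also make, was read by probe A_23_P152838. Its spots had signals of 19495 and 19026 on the control array and of 20106 and 18281 on the LPS array, so that the spots of the arrays overlapped before scaling. The difference was -0.14 ± 0.09 (log2, SE between spots), and neither CCL4 nor CCL5 reached 2-fold under any spot pairing. With 1 array per condition this does not show that their transcripts were the same in both.

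**Figure D2:**
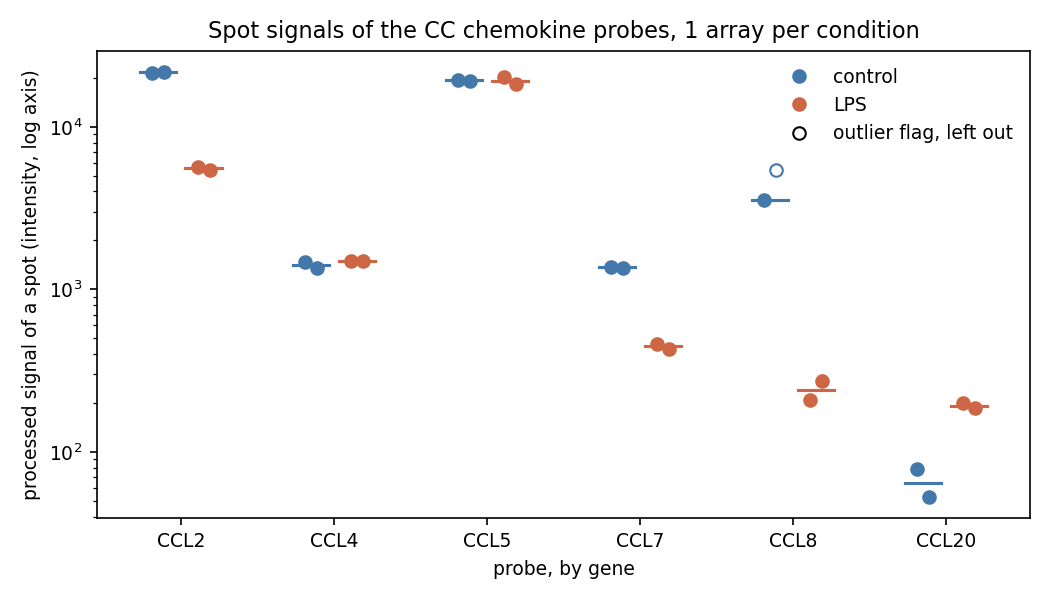
Processed signal of each spot (intensity, log axis) for the 6 CC chemokine probes on the control and the LPS array, before scaling. Points are spots, lines are means of the log2 signals of the spots used, and the open circle is the CCL8 control spot left out for its outlier flag; the spots of CCL2, CCL7 and CCL8 are lower on the LPS array, those of CCL20 are higher, and those of CCL5 overlap.

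Set in order by the difference between the arrays, CCL8 (-4.02) came first, followed by CCL2 (-2.09), CCL7 (-1.75), CCL5 (-0.14), CCL4 (-0.06) and CCL20 (1.44). The gap between CCL8 and CCL2 was 1.93 ± 0.15 (log2, SE between spots) and that between CCL7 and CCL5 was 1.61 ± 0.13. CCL4 and CCL20 lay 8.48 times the SE of their gap apart. The SEs of these gaps are pooled over probes of like signal. The LPS spots of CCL8 and the control spots of CCL20 varied more than those probes did. Between CCL2 and CCL7 the gap was 0.34 ± 0.13, which is 2.59 times its SE. Between CCL5 and CCL4 it was 0.08 ± 0.13, within the error between spots.

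The spots of each probe lie at different places on the array, and the same place holds the same probe on both arrays. At the same place, the CCL2 spots differed by -2.06 and -2.13 (log2), those of CCL7 by -1.71 and -1.79, and those of CCL20 by 1.21 and 1.68. For CCL8 the differences were -4.22 and, at the place of the flagged control spot, -4.43. The surrounding spots, taken as those up to 10 rows and 10 columns away that were well above background on both arrays, numbered 335 to 369 per place. Their median differences lay between -0.13 and -0.02, so that no place of these 12 lay in a region where the surroundings differed as much as the called probes. The median local background around the 12 spots was between 16 and 20 on each array, and no spot was saturated. The scanner software's own error of the spot signals was between 10.0% and 12.6% on the control array and between 10.0% and 10.1% on the LPS array.

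**Figure D3:**
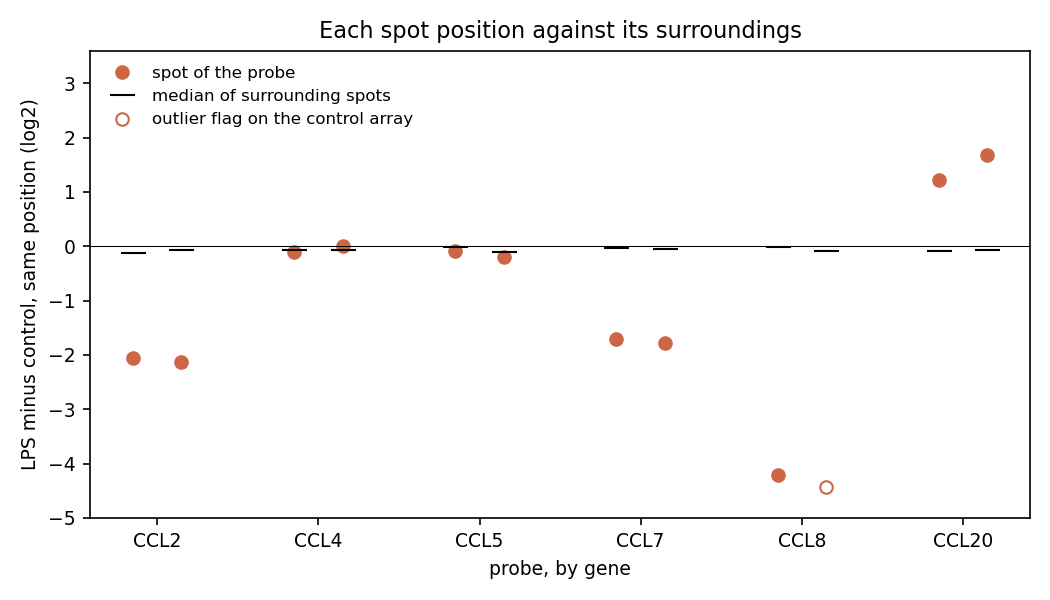
Difference between the arrays, LPS minus control (log2, after scaling), at each spot position of the 6 probes. Points are spots of the probe, dashes are the median over 335 to 369 surrounding spots, and the open circle marks the position of the flagged control spot of CCL8; the dashes stay between -0.13 and -0.02 while CCL8 lies below -4.

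The size of a difference on these arrays depends on the signal, since LPS values of dim probes were below their control values. All probes were ranked by mean signal and split into 10 groups of equal size. In the dimmest group the median difference was -1.84 (log2), but no probe there was detected on both arrays. In the third group from the dimmest, with 7028 of 7515 probes detected on both, it was -0.62. In the brightest group the median difference was 0.03. CCL2 and CCL5 lay in the brightest group, where the middle 95% of the detected probes ran from -0.71 to 0.64. In that group 25 of the 7514 probes detected on both arrays had a lower difference than CCL2. CCL4, CCL7 and CCL8 lay in the group below it, with the middle 95% from -0.83 to 0.63 over 7515 probes, of which 47 were lower than CCL7 and 6 were lower than CCL8. CCL20 lay in the fifth group from the dimmest, where the median was -0.11 and the middle 95% ran from -1.45 to 0.60, and 38 of 7513 probes had a higher difference. CCL20 therefore differed in the direction opposite to the shift of the probes of like signal, and the lower calls of CCL2, CCL7 and CCL8 were made where that shift was near 0. CCL5 was higher than 18.6% and CCL4 higher than 32.3% of the probes of their groups.

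**Figure D4:**
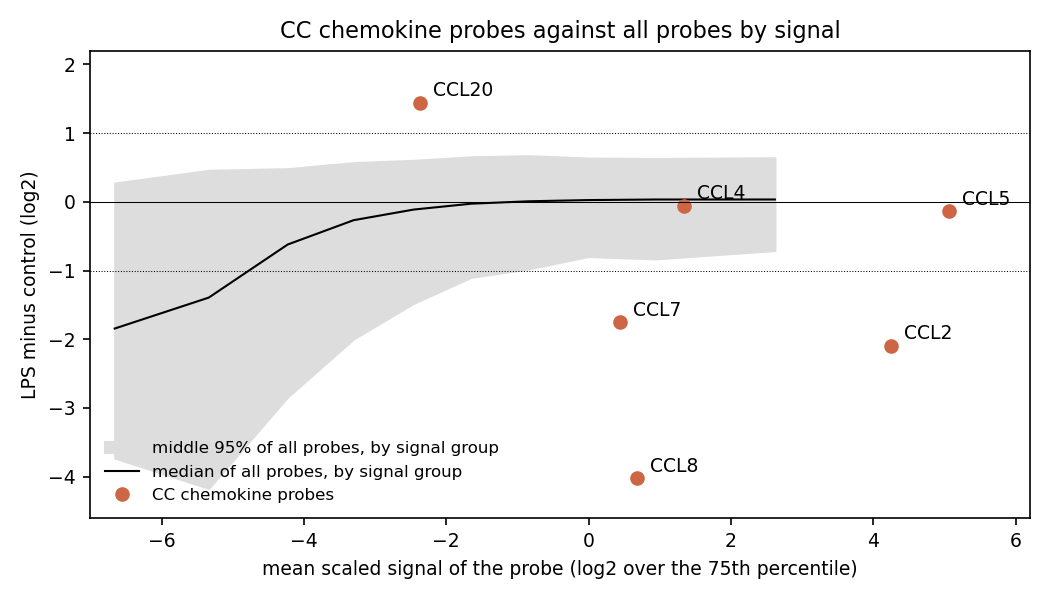
Difference between the arrays, LPS minus control (log2), against the mean scaled signal of the probe (log2 over the 75th percentile), for the 6 CC chemokine probes. The black line is the median and the grey band the middle 95% of all 75149 probes in 10 groups by signal, and dotted lines mark 2-fold; CCL7 and CCL8 lie below the band and CCL20 above it, while CCL2 and CCL5 are brighter than the median of the brightest group, where the band ends.

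The directions of CCL2, CCL7, CCL8 and CCL20 were the same with every background correction, scaling and summary of spots that was run. CCL2 lay between -2.24 and -1.96 (log2), CCL7 between -1.89 and -1.55, CCL8 between -4.33 and -3.65, and CCL20 between 0.92 and 1.67. CCL5 lay between -0.28 and -0.01. Under quantile normalization, which gives the arrays a common distribution and turned the median of all probes from -0.13 to 0.05, CCL20 had its highest value and CCL2 was at -2.11. For each of the 6 probes, the authors' table of processed values held the mean of the same spots without scaling, such as 3534 and 239 for CCL8, so it also left out the flagged CCL8 spot.

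**Figure D5:**
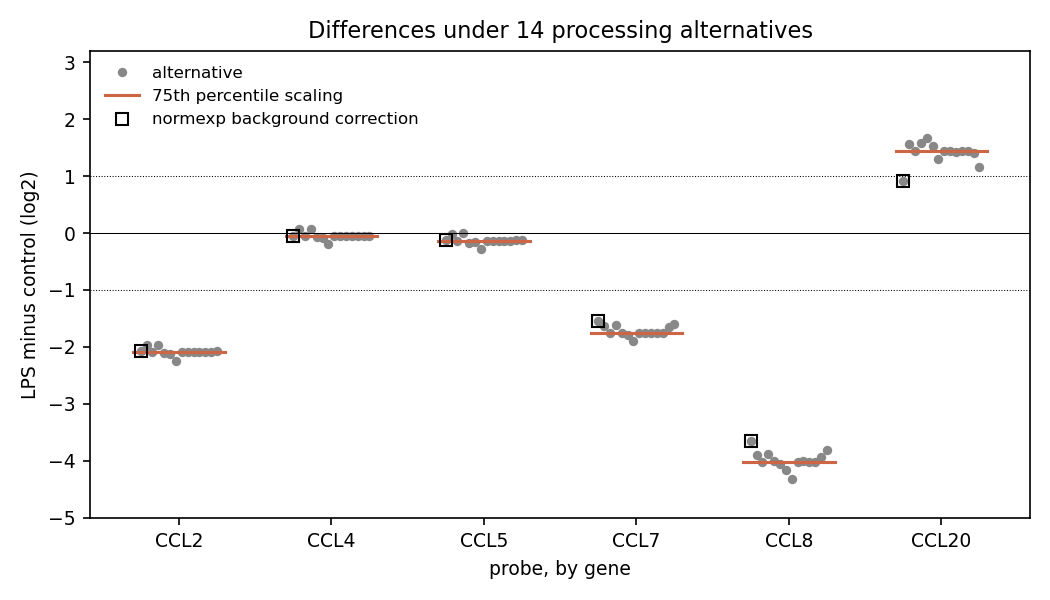
Difference between the arrays, LPS minus control (log2), of the 6 probes under 14 processing alternatives (grey points) and with scaling to the 75th percentile (lines). Squares are the normexp background correction with an offset of 50, under which CCL20 (0.92) falls below the dotted line of 2-fold, while CCL2, CCL7 and CCL8 stay beyond it throughout.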

How the data were processed

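One-colour arrays of THP-1 cells, 1 control and 1 LPS, were grouped by their treatment labels. The authors deposited Agilent Feature Extraction 11.5.1.1 output, in which each spot's intensity is background-subtracted and detrended across the array but not scaled between arrays. Other deposited columns hold flags of 0 or 1, or the signal error, median intensity, local background and position of each spot. The deposited table of processed intensity values is linear, with medians of 136 and 137, and for all 65460 shared probes lay within 0.001 (log2) of the mean of the unflagged spots. Its normalization is not described in the sources used here, but these values match the means before any scaling between the arrays.

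Control spots and outlier-flagged spots (1.71% of control-array and 1.93% of LPS-array spots) were left out, the log2 intensities of each probe's spots were averaged, and the 75th percentile over probes was subtracted. All spots of a probe were used where every one was flagged. A probe was detected when more than 50% of the spots kept were well above background, as were 91.7% of control-array and 82.4% of LPS-array probes. Where 1 array was not, a lower bound was taken, against the dim value itself or, if higher, the lowest signal detected on that array. Where neither was, no call was made. All 6 probes were detected on both arrays. The SE of a difference comes from the pooled SD between spots of probes of the same of 10 groups by signal and the number of spots used. The number of arrays limits the precision.

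All 7 probes of the rule were to be named, and other genes only where a table pairs a probe with a gene, which none did. The members and lists were chosen with earlier results of these data known. Alternatives changed the background correction, scaling, spot summary, detection flag, threshold and source of values. Normexp used median spot intensities. Python 3.11.15, numpy 2.4.6, pandas 2.3.3, matplotlib 3.10.9, R 4.3.3 and limma 3.58.1 were used.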

Additional observations from a re-analysis of the deposited data

How the results depend on the processing

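The number of CC chemokine probes called lower was 3 under every alternative but the 4-fold threshold, where it was 2, because CCL7 no longer passed. The number called higher was 1, and 0 with the normexp background correction and at the 3-fold and 4-fold thresholds. With normexp and its offset of 50, which is added to every signal and so narrows differences of dim probes, CCL7 was at -1.55 (log2), CCL8 at -3.65 and CCL20 at 0.92. The remaining shifts of 0.17 (log2) or more, which is the SE of a difference over 2 spots per array pooled over all probes detected on both arrays, were those of CCL8 with all spots kept (-4.33), CCL20 under quantile normalization (1.67), and CCL8 (-3.82) and CCL20 (1.15) without background subtraction. Normexp without an offset and spot intensities without background subtraction were chosen after seeing the data, and with the former CCL20 was at 1.40.

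Over all probes, 543 were called higher and 11473 lower. The numbers were 312 and 1314 with normexp, 2827 and 3610 under quantile normalization, 1648 and 4165 under cyclic loess, 214 and 6163 at 3-fold, and 108 and 3405 at 4-fold. At 1.5-fold 1794 were higher, among probes above background on both arrays 4562 were lower, and without background subtraction 3028 were lower. The share of calls that were lower was 95.5%, and 56.1% under quantile normalization, 71.6% under cyclic loess and 80.8% with normexp. All probes had a median difference of -0.13 (log2), which was -0.01 with the 50th percentile, 0.05 under quantile normalization and -0.28 with scaling by the E1A control probes. No paired analysis was possible because each condition has a single array.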
